A study of Rattus norvegicus with 6 samples.

Results

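The genes described here are the chemokines, their signalling receptors and the atypical receptors that take chemokines up. They were chosen by name: every gene whose platform symbol begins with Cxcl, Ccl, Cx3cl, Xcl, Cxcr, Cx3cr, Ackr or Pf4, or with Ccr and a digit. This gave 52 genes of the 14506 that carry a single symbol on the array, each measured by 1 probe set: 13 CXC ligands, 19 CC ligands, 2 ligands of the CX3C and C classes, 16 signalling receptors and 2 atypical receptors. Values are the log2 values the authors deposited, and a change is the mean of the arrays labelled differentiated minus the mean of the arrays labelled undifferentiated.

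Cells dispersed from the carotid body of adult rats, the oxygen-sensing organ of the carotid artery, formed floating clusters called neurospheres over 10 days in neural crest medium. The group labelled undifferentiated, 3 arrays, was kept in normoxia with 4 mitogens, namely EGF, FGF, the insulin-like factor IGF-1 and the endothelin ET-1, and the group labelled differentiated, also 3 arrays, was kept without mitogens in hypoxia at 3% O2. Mitogens and oxygen therefore changed together and their parts cannot be told apart. The comparison asks which pathways separate spheres enriched in neuronal cells from spheres enriched in undifferentiated cells; strain, sex and the number of animals behind each array are not stated.

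Chemokines are small secreted proteins that guide moving cells by way of G protein-coupled receptors, and they are sorted into the CXC, CC, CX3C and C classes by the spacing of their leading cysteines. Most inflammatory chemokines are made on demand by fibroblasts, endothelium and macrophages and draw in leukocytes, whereas homeostatic ones such as Cxcl12 position progenitor cells in their niches. Atypical receptors bind chemokines without activating G proteins and remove them from the extracellular space. In the carotid body, glomus cells are the oxygen-sensing, catecholamine-making cells, and macrophages and mesenchymal cells lie around them.

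Array medians lay between 5.05 and 5.13 over all probe sets. Th, the enzyme that sets the rate at which dopamine is made, read 13.76, 13.59 and 13.91 against 10.73, 11.32 and 10.65 and fell by 2.86 in the arrays labelled differentiated (limma adjusted p = 5.09e-07), which goes against that label; each array is therefore called by its label in what follows. All 11 measured glomus cell markers fell, with 0 higher even at an unadjusted p under 0.05 in limma, and the mean log2 level of that list was 10.43 to 10.52 in the arrays labelled undifferentiated and 7.61 to 8.05 in those labelled differentiated. All 12 fibroblast and mesenchyme markers rose, with 0 lower at the same unadjusted p, and their list mean was 9.14 to 9.50 in the arrays labelled undifferentiated and 10.56 to 10.60 in those labelled differentiated. These 2 marker lists moved with the groups as a whole, their part in the changes given below was not tested, and in whole spheres fewer cells of a type and less RNA per cell cannot be told apart.

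With the threshold at an adjusted p of 0.05 in limma, 9 of the 52 changed (17.3%, against 29.5% of all genes tested). The 6 that rose in the arrays labelled differentiated were Ccl9, Ccl7, Ccl2, Cxcl16, Ccr1 and Cxcl1, and 14.7% of all genes rose. The 3 that fell were Cxcl14, Ackr3 and Ccl17, and 14.9% of all genes fell. With a log2 change of at least 1 added to the rule, 5 of the 52 rose, against 3.20% of all genes, and 2 fell, against 4.80%. The 3 arrays of a group lay wholly apart from the 3 of the other in 13 of these 52 (8 higher and 5 lower, against 42.3% of all genes). The median change was 0.12, against 0.06 over all genes.

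**Figure D1:**
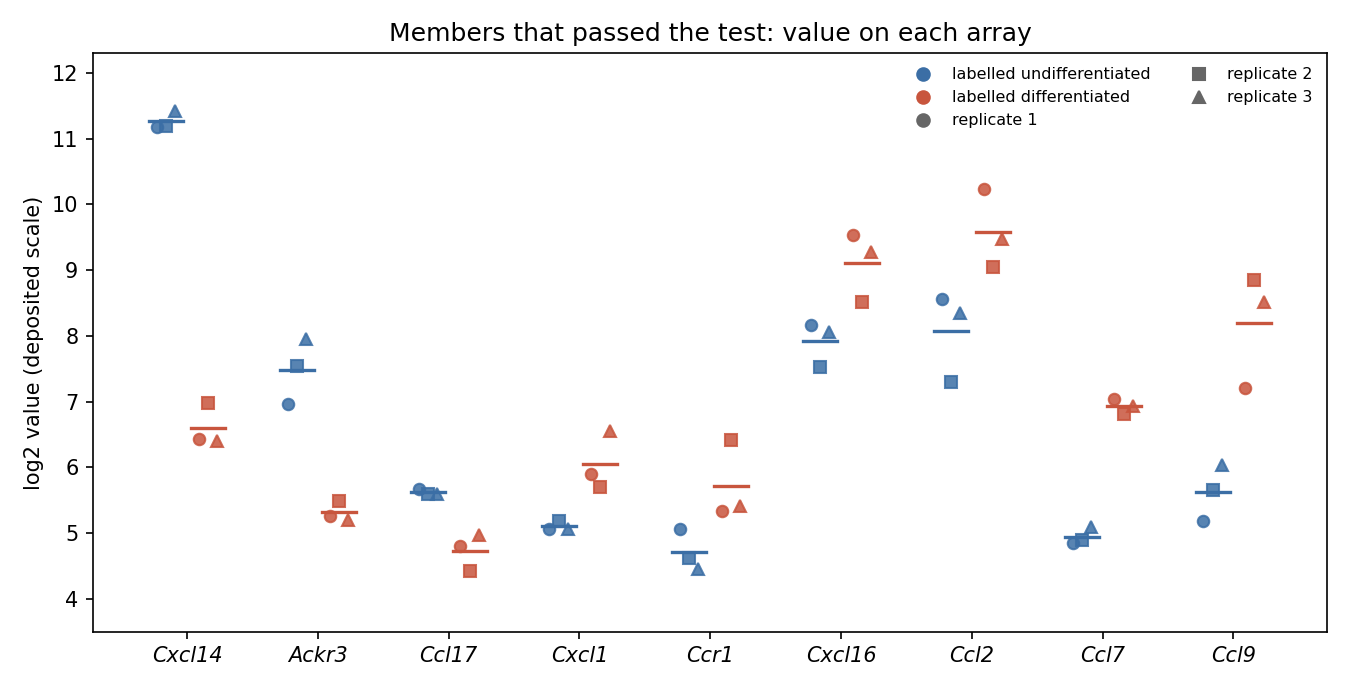
Log2 value on each of the 6 arrays for the 9 genes that passed the test, ordered by their change; points are arrays, with the marker shape giving the replicate number, and short lines are group means of 3 arrays. The groups do not overlap in any of the 9 genes; levels of different genes come from different probes and are not comparable with each other.

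Most of the genes were dim. Of the 52 genes, 42 had a mean at or below the median of all genes (5.86), and 3 of those passed (7.14%, against 13.6% of all genes in that range). Of the 10 brighter genes 6 passed (60.0%, against 45.5% of all genes in that range), and these counts are a description of the genes at hand. On every array 16 of the 52 genes lay below the lower quartile of gene values, which 20.9% of all genes did. All 9 genes that passed lay above that quartile on all 6 arrays.

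**Figure D2:**
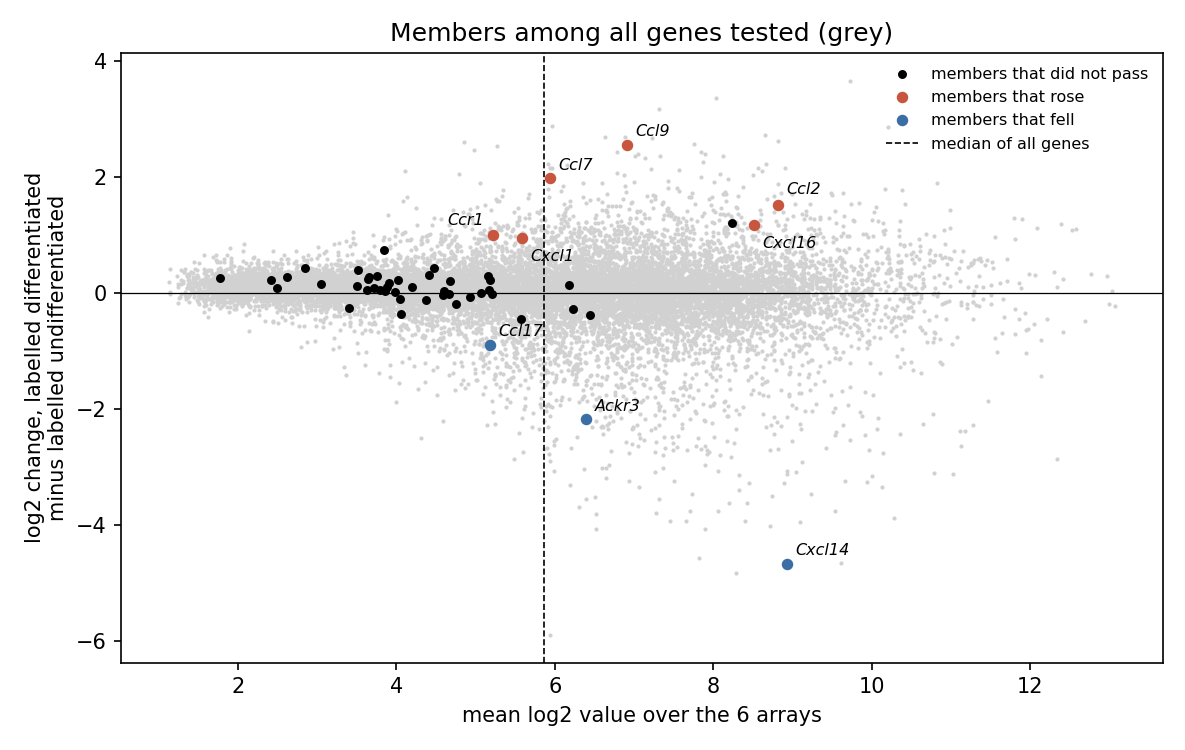
Change (vertical axis, log2) against the mean log2 value over the 6 arrays (horizontal axis) for all 14506 genes in grey and the 52 chemokine and receptor genes in colour or black; the dashed line is the median of gene means, 5.86. Most of the black points lie left of that line and close to 0, and Cxcl14 lies lowest of the 52, at -4.66.

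Among the 13 CXC ligands 2 rose, 1 fell and 10 did not pass (23.1% called, against 29.5% of all genes). Cxcl14, a homeostatic chemokine of epithelia and nervous tissue, read 11.18, 11.19 and 11.42 in the arrays labelled undifferentiated and 6.43, 6.98 and 6.40 in those labelled differentiated. Its highest array labelled differentiated thus lay far below its lowest array labelled undifferentiated, with no other of the 52 genes changing as much. The mean was 11.26 ± 0.14 (SD, n = 3) against 6.60 ± 0.33 (SD, n = 3), a fall by 4.66 ± 0.15 (SE), or 25.3-fold (limma adjusted p = 1.03e-08). The call held in every alternative run, with changes of -4.85 to -4.56 as each array was left out.

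Cxcl16, a transmembrane chemokine that macrophages and other cells shed, read 8.17, 7.53 and 8.06 in the arrays labelled undifferentiated and 9.53, 8.51 and 9.27 in those labelled differentiated. It rose by 1.18 ± 0.24 (SE), or 2.27-fold (limma adjusted p = 0.00289). In each group replicate 2 was the lowest of the 3 arrays, and the groups did not overlap. Cxcl1, a neutrophil attractant induced by inflammatory signals, read 5.07, 5.18 and 5.07 against 5.90, 5.70 and 6.56, with the spread lying in the arrays labelled differentiated. It rose by 0.95 ± 0.19 (SE), or 1.93-fold (limma adjusted p = 0.00333), and by 0.69 without differentiated replicate 3, still past the threshold.

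Cxcl13, the B cell attractant of lymphoid follicles, was bright and variable. Its values were 7.62, 8.82 and 6.44 in the arrays labelled undifferentiated and 8.40, 9.70 and 8.42 in those labelled differentiated. The groups overlapped, because undifferentiated replicate 2 lay above 2 of the 3 arrays labelled differentiated, and the change of 1.21 ± 0.50 (SE) did not pass (limma adjusted p = 0.0981). Without undifferentiated replicate 2 the change was 1.81 (adjusted p = 0.0117), and without undifferentiated replicate 3 it was 0.62 (adjusted p = 0.346). Pf4, platelet factor 4, which macrophages also make, read 6.84, 6.74 and 6.30 against 6.07, 6.88 and 5.80 and did not pass (-0.37, limma adjusted p = 0.301). Differentiated replicate 2 was the highest of all 6 arrays for Pf4, and without it the change was -0.69 (adjusted p = 0.0105).

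The other CXC ligands were dim. Cxcl12, the niche factor that signals by Cxcr4, read 4.04, 4.43 and 4.27 against 4.37, 4.55 and 4.77. Its change was 0.32, with a 95% interval of -0.04 to 0.67 (limma adjusted p = 0.178). A rise of the size seen in the brighter Cxcl16 lies outside that interval. The interval bounds the deposited value of a dim gene, whose margin over background is unknown, and not the change of the transcript. Cxcl11 read 3.56, 3.70 and 3.32 against 3.24, 3.35 and 3.21, overlapping. The interferon-induced ligands Cxcl9, Cxcl10 and Cxcl11 differed by 0.28, 0.18 and -0.26, and all 3 lay below the lower quartile of genes on all 6 arrays. So did the neutrophil attractants Cxcl2, Cxcl3 and Cxcl6, at 0.27, 0.15 and 0.13, while Cxcl17, a mucosal chemokine, differed by 0.22.

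Among the 19 CC ligands 3 rose, 1 fell and 15 did not pass (21.1% called, against 29.5% of all genes). Ccl9, a rodent chemokine of macrophages that binds Ccr1, read 5.19, 5.65 and 6.04 in the arrays labelled undifferentiated and 7.21, 8.85 and 8.51 in those labelled differentiated. It had the largest rise of the 52 genes, 2.56 ± 0.35 (SE), or 5.91-fold (limma adjusted p = 0.000216). Its spread was wider in the group labelled differentiated, with an SD of 0.87 against 0.43, and the groups were well apart on all 6 arrays. Across the arrays left out in turn the rise ran from 2.23 to 3.05.

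Ccl7 and Ccl2 are monocyte attractants that act on Ccr2 and lie beside each other in the genome. Ccl7 read 4.85, 4.90 and 5.10 against 7.04, 6.82 and 6.93, and rose by 1.98 ± 0.12 (SE), or 3.95-fold (limma adjusted p = 5.06e-07). Its arrays were tight in both groups, with an SD of 0.13 and 0.11. Ccl2 read 8.56, 7.30 and 8.35 against 10.23, 9.05 and 9.47, and rose by 1.52 ± 0.33 (SE), or 2.86-fold (limma adjusted p = 0.00464). Its arrays spread more widely, and replicate 2 was the lowest in each group, as for Cxcl16.

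Ccl17, which attracts T cells by way of Ccr4, was the CC ligand that fell. It read 5.68, 5.60 and 5.60 in the arrays labelled undifferentiated and 4.81, 4.42 and 4.98 in those labelled differentiated, with no overlap. The fall by 0.89 ± 0.16 (SE) was 1.85-fold (limma adjusted p = 0.00118). Of the CC ligands that did not pass, Ccl12, a rodent Ccr2 ligand, had the largest change, at 0.75 ± 0.30 (SE, limma adjusted p = 0.0895). Its arrays read 3.56, 3.70 and 3.14 against 4.12, 4.98 and 3.55, overlapping, and without differentiated replicate 3 it passed (1.08, adjusted p = 0.0134).

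Ccl26 and Ccl11, too, passed when a single array was left out. The eosinophil attractant Ccl26 (0.44) passed without undifferentiated replicate 2 (0.58, limma adjusted p = 0.0361), and the related Ccl11 (0.40) passed without differentiated replicate 1 (0.59, adjusted p = 0.0327). Ccl3, a macrophage inflammatory protein that binds Ccr1, read 5.72, 5.61 and 6.04 against 4.94, 5.48 and 5.61, and its difference of -0.45 ± 0.18 (SE) did not pass (limma adjusted p = 0.0994). Of the Ccr1 ligands that did not pass, the smallest differences were those of Ccl5 and Ccl6: Ccl5, at 4.64, 4.70 and 4.48 against 4.54, 4.70 and 4.47, by -0.04, and Ccl6, at 4.06, 3.54 and 3.92 against 3.69, 4.25 and 3.68, by 0.03. The sign of these last 2 differences turned when single arrays were left out. The remaining CC ligands, namely Ccl4, Ccl19, Ccl20, Ccl21, Ccl22, Ccl24, Ccl25, Ccl27 and Ccl28, differed by -0.12 to 0.25, and the sign turned for all of them but Ccl24 when single arrays were left out. Cx3cl1, the membrane-bound fractalkine, and Xcl1, lymphotactin, differed by 0.21 and 0.11, and 0 of these 2 passed, by limma's adjusted test or at an unadjusted p under 0.05.

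**Figure D3:**
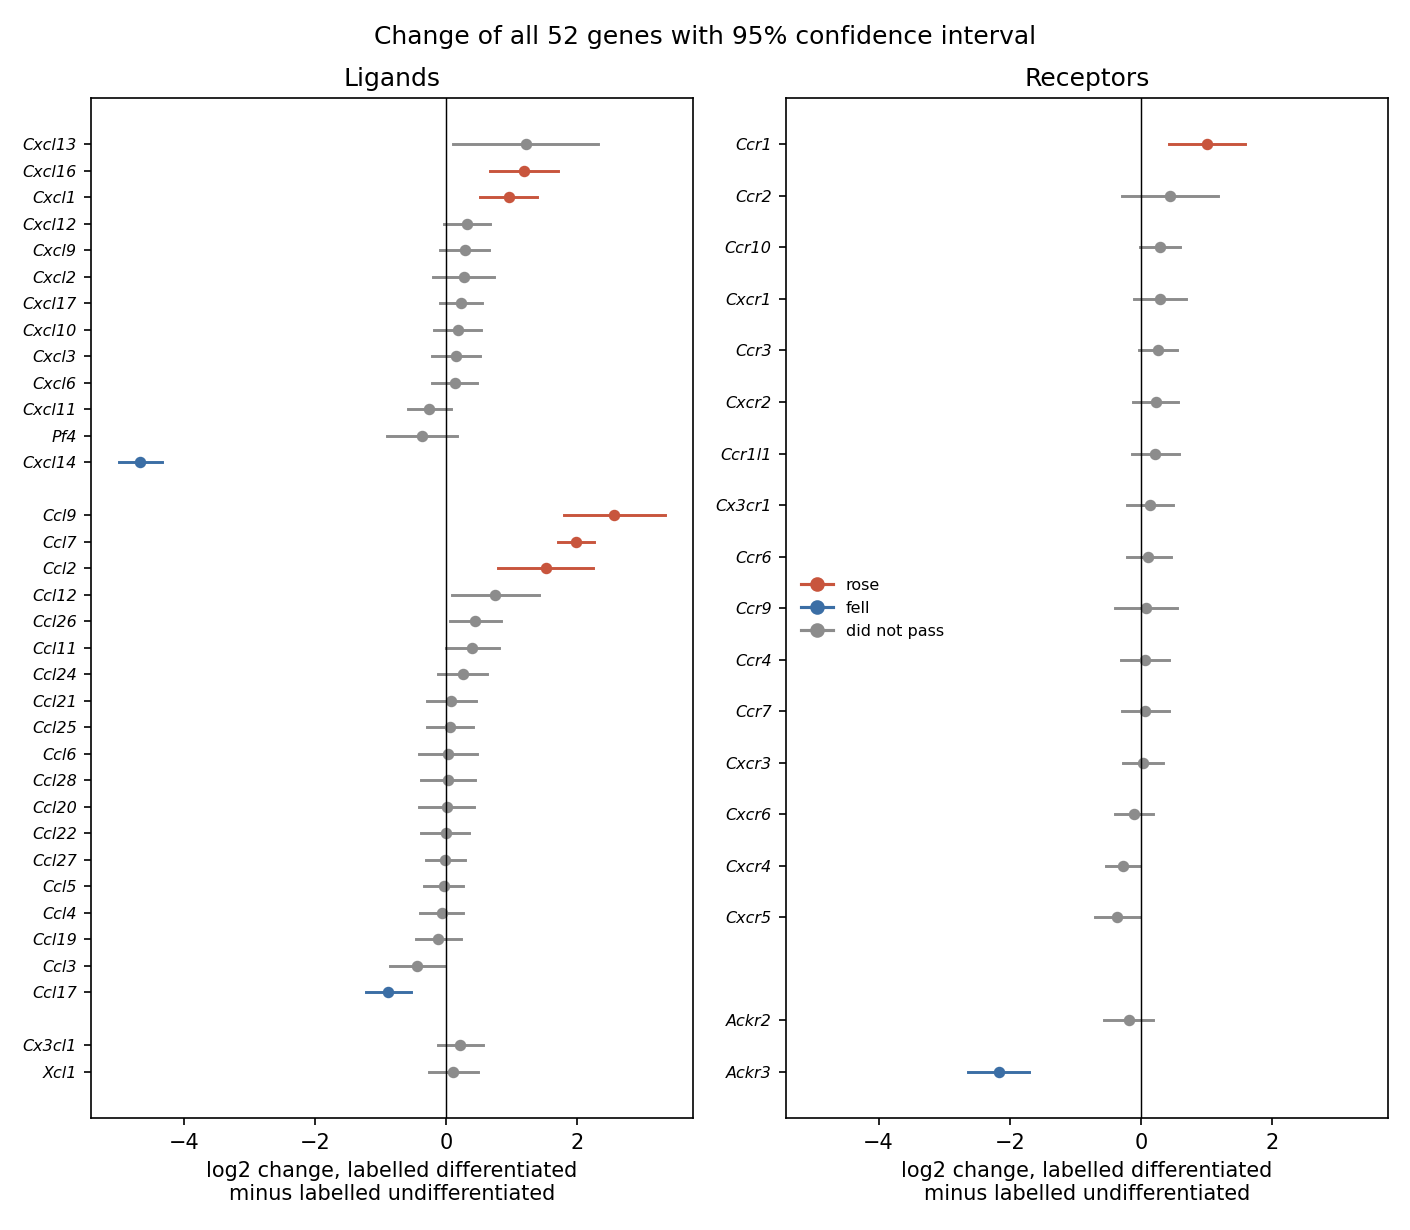
Change (log2, labelled differentiated minus labelled undifferentiated) of all 52 genes with its 95% confidence interval from limma, ligands on the left and receptors on the right, each class in order of change. Of 16 signalling receptors 1, Ccr1, passed and rose (6.25%, against 29.5% of all genes called and 13.6% of those at or below the median). Ackr3 fell by 2.17 and Cxcl14 by 4.66.

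Of the 16 signalling receptors 1 rose and 0 fell by limma's adjusted test, and at an unadjusted p under 0.05 1 was higher and 2 were lower. The share called was 6.25%, against 29.5% of all genes. Among all genes at or below the median, as all of these receptors but Cxcr4 and Cx3cr1 were, it was 13.6%. Ccr1, a receptor of monocytes and macrophages, read 5.07, 4.62 and 4.46 in the arrays labelled undifferentiated and 5.34, 6.41 and 5.42 in those labelled differentiated. The groups did not overlap, but they were separated by less than the range within either group. The rise was 1.00 ± 0.27 (SE), about a doubling (limma adjusted p = 0.0141). Leaving out undifferentiated replicate 2 gave 0.95 (adjusted p = 0.0554) and leaving out undifferentiated replicate 3 gave 0.88 (adjusted p = 0.0615), and neither passed. Without differentiated replicate 2, its highest array, it was 0.66 (adjusted p = 0.0217).

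Ccr1, the receptor of Ccl9, rose as given above. The other partners of the ligands that changed were mostly dim and did not pass. Ccr2, the receptor of Ccl2 and Ccl7, read 2.44, 2.75 and 2.70 against 2.45, 4.03 and 2.73, and its difference of 0.44 (limma adjusted p = 0.375) rested on differentiated replicate 2, without which it was -0.04. Cxcr2, the receptor of Cxcl1, read 2.19, 2.45 and 2.29 against 2.32, 2.70 and 2.59 (0.23). Cxcr6, the receptor of Cxcl16, read 4.04, 4.10 and 4.16 against 3.99, 3.95 and 4.04 (-0.11). The receptor of Ccl17, Ccr4, read 3.57, 3.44 and 3.79 against 3.42, 3.70 and 3.86 (0.06), a sign that turned when single arrays were left out. Of these, Ccr2, Cxcr2 and Ccr4 lay below the lower quartile of genes on all 6 arrays, and Cxcr6 on 4 of them.

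Ackr3, formerly Cxcr7, binds and clears Cxcl12 and Cxcl11, and Cxcr4 is the signalling receptor of Cxcl12. Ackr3 read 6.96, 7.54 and 7.95 in the arrays labelled undifferentiated and 5.26, 5.49 and 5.20 in those labelled differentiated, far apart on all 6 arrays. It fell by 2.17 ± 0.21 (SE), or 4.48-fold (limma adjusted p = 1.63e-05). Cxcr4 read 6.45, 6.47 and 6.20 against 6.10, 6.16 and 6.00, and although the groups did not overlap, its difference of -0.28 ± 0.12 (SE) did not pass (limma adjusted p = 0.102). The 95% interval of Ackr3, -2.63 to -1.70, and that of Cxcr4, -0.54 to -0.02, do not overlap; the difference between the 2 changes itself was not tested. The other atypical receptor, Ackr2, which clears inflammatory CC chemokines, differed by -0.19 (limma adjusted p = 0.481).

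Cx3cr1, the fractalkine receptor of macrophages and microglia, was the other signalling receptor brighter than the median gene. It read 6.31, 6.16 and 5.85 against 6.01, 6.51 and 6.22, overlapping, and differed by 0.14, with a 95% interval of -0.21 to 0.49 (limma adjusted p = 0.569). The lymphocyte receptors Ccr6, Ccr7, Ccr9, Ccr10, Cxcr3 and Cxcr5 differed by 0.11, 0.06, 0.08, 0.29, 0.03 and -0.36. The granulocyte receptors Cxcr1 and Ccr3 differed by 0.29 and 0.26, and Ccr1l1, a neighbour of Ccr1 in the genome, differed by 0.22. None of these 9 passed in limma's fit; at an unadjusted p under 0.05, Cxcr5 was lower.

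The macrophage markers were divided. Their list mean was highest in differentiated replicate 2, as were the single markers apart from Cybb, Cd163, Lyz2 and Itgam. Of 13 measured macrophage markers 3 rose and 2 fell (38.5%, median -0.0024), which is near the share called over all genes (29.5%, and 45.5% of those brighter than the median, as 10 of the 13 were). Tyrobp and Cd14, an adaptor and a lipopolysaccharide receptor of myeloid cells, rose by 1.24 and 0.68, while Cybb, the oxidase subunit of phagocytes, fell by 1.27 and Cd163, a scavenger receptor, by 1.00. The call of Cd163 was lost when any of 4 of the arrays was left out (adjusted p up to 0.0852). The mean log2 level of the list was 7.39, 7.16 and 6.78 in the arrays labelled undifferentiated and 6.99, 7.65 and 6.92 in those labelled differentiated, so the groups overlapped and differentiated replicate 2 was highest. Ccl9, Ccr1, Ccr2, Ccl12, Cxcl13 and Pf4 were also highest in that array, Pf4 by little (6.88 against 6.84 in undifferentiated replicate 1). So were other members, among them Cx3cr1, Ccl6, Ccl11, Ccl26, Cxcl9, Ccl22, Cx3cl1, Ccr6, Ccr7 and Cxcr2. The trait is therefore not particular to the genes named first. Of the genes that rose, Cxcl16, Ccl2, Ccl7 and Cxcl1 were lowest of their group in it. The part of macrophage content in any of these genes was not tested. Without that array the change was 2.23 for Ccl9, 0.66 for Ccr1, 0.78 for Cxcl13 and -0.04 for Ccr2, against 2.56, 1.00, 1.21 and 0.44 with it.

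**Figure D4:**
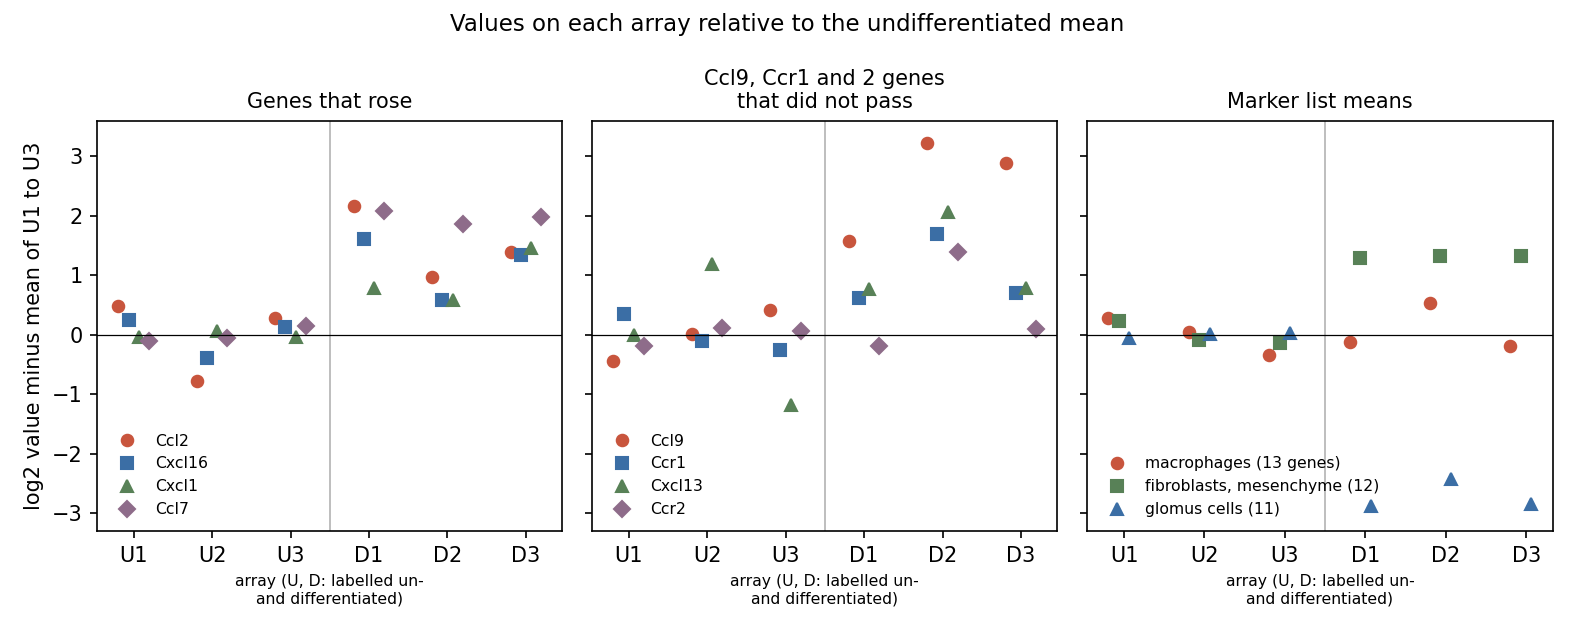
Log2 value on each array minus the mean of the 3 arrays labelled undifferentiated, for 4 genes that rose (left), for Ccl9, Ccr1, Cxcl13 and Ccr2 (middle) and for the means of 3 marker lists (right); U and D stand for labelled undifferentiated and labelled differentiated, with the replicate number. Ccl9, Ccr1, Cxcl13, Ccr2 and the macrophage list are highest in D2, while Ccl2, Cxcl16, Cxcl1 and Ccl7 are lowest of their group in D2.

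Markers of other leukocytes did not pass. Of 11 markers of T, B and NK cells 0 passed limma's adjusted test, and 2 were lower at an unadjusted p under 0.05. Of 10 granulocyte and mast cell markers 0 passed, with 1 higher at an unadjusted p under 0.05, and of 3 platelet markers 0 passed by either measure. In these lists 1, 0 and 0 genes in turn were brighter than the median. Of all genes 29.5% were called, and 13.6% of those at or below the median, so counts of 0 say little in lists this short. The mean log2 level was 3.80 to 4.06 and 3.69 to 3.87 for the T, B and NK list, 3.36 to 3.46 and 3.47 to 3.54 for the granulocyte list, and 3.95 to 4.25 and 4.19 to 4.70 for the platelet list, in the arrays labelled undifferentiated and differentiated in turn. Of 12 endothelial markers 2 rose and 2 fell (median 0.03), of 8 smooth muscle and pericyte markers 3 rose and 1 fell (median 0.45), and of 8 glial and Schwann lineage markers 2 rose and 1 fell (median 0.19). In these lists 4, 5 and 6 genes in turn were brighter than the median. The counts are near the background, 29.5% of all genes and 45.5% of the brighter ones, and differences from it were not tested. The 2 glial risers, Foxd3 (0.35) and S100b (0.74), each lost their call on 4 of the 6 leave-outs, and both did without undifferentiated replicate 2 (adjusted p = 0.0966 and 0.147). Egfl7, an endothelial marker that fell by 0.50, no longer passed when undifferentiated replicate 3 or differentiated replicate 2 was left out (adjusted p = 0.0752 and 0.0508).

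Genes that carry the signal of chemokine receptors changed in both directions. Of 22 measured signalling genes 6 rose and 3 fell (40.9%, median 0.16), against 29.5% called of all genes and 45.5% of those brighter than the median, as 15 of the 22 were. The share is thus near the background. Rac2, a small GTPase of blood cells, rose by 1.28 ± 0.26 (SE, limma adjusted p = 0.00345), and Grk5, a kinase that desensitizes receptors, by 0.70. Ptk2b, a kinase activated by calcium, fell by 1.47 ± 0.09 (SE, limma adjusted p = 6.93e-07), and Gnai1, an inhibitory G protein subunit, by 0.83. Rac2 read 7.24, 6.99 and 6.39 against 7.79, 8.80 and 7.87, again highest in differentiated replicate 2.

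NF-kB drives many inflammatory chemokines, and 18 of its other targets were measured. Of these 7 rose and 2 fell (median 0.31), while 14.7% of all genes rose and 14.9% fell, and 45.5% of the genes brighter than the median were called, as 12 of the 18 were. By sign alone 10 were higher and 8 lower. Csf1, the macrophage growth factor, rose by 1.49 ± 0.19 (SE, limma adjusted p = 0.000134) and Nfkbiz, a nuclear co-regulator of NF-kB, by 1.02, while Il6 fell by 0.69 and Sod2, a mitochondrial superoxide dismutase, by 0.63. Of 17 interferon targets 1 rose and 2 fell (17.6%, median 0.03): Gbp5 and Irf9 fell by 0.60 and 0.38 and Psmb9 rose by 0.40. Of all genes 29.5% were called, and 13.6% of those at or below the median. Only 5 of the 17 were brighter than the median, and the difference from these shares was not tested. The calls of Irf9 and Psmb9 were lost when any of 4 and any of 5 arrays was left out, with adjusted p up to 0.0608 and 0.136.

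Of 15 measured proteases and proteoglycans that cut or hold chemokines 7 rose and 0 fell, with 0 lower at an unadjusted p under 0.05 in limma (46.7%, median 0.36). The share called was near that of all genes brighter than the median (45.5%), as 13 of the 15 were, but that share counts both directions. For rises alone, 14.7% of all genes rose, and 1593 of the 7253 genes brighter than the median. The difference from these shares was not tested. Mmp2, a gelatinase that trims Cxcl12 and Ccl7, rose by 1.89 ± 0.11 (SE, limma adjusted p = 2.99e-07), and the collagenase Mmp13 rose by 2.62. Among 8 related genes with other names 1 rose and 1 fell (median 0.17). Cmklr1, the chemerin receptor, rose by 1.30, and Cd74, the invariant chain and a receptor of Mif, fell by 2.64. The platelet chemokine Ppbp, the Xcl1 receptor Xcr1 and the atypical receptor Ccrl2 differed by 0.11, 0.23 and 0.32 and did not pass.

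Neighbouring members were called together in 1 run and singly in 4. By the order of protein-coding genes in RefSeq's rat assembly GRCr8, 33 of the 52 genes lay in 9 runs of neighbours, at most 5 places apart, and 6 of the 9 changed genes were in 5 of these runs. In the run of Ccl2, Ccl7, Ccl11 and Ccl12 the former 2 rose. Ccl9 was the riser in the run of Ccl3, Ccl4, Ccl5, Ccl6 and Ccl9, as was Cxcl1 in the run of Cxcl1, Cxcl2, Cxcl3, Cxcl6 and Pf4. Ccl17 fell in the run of Ccl17, Ccl22 and Cx3cl1, and Ccr1 rose in the run of Ccr1, Ccr1l1, Ccr2, Ccr3, Ccr9 and Cxcr6. Genes of such runs can share probes with near-identical copies, which was not examined here, so the split between close relatives is less certain.

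The 250 bases before the start of 8 of the 9 changed genes were at hand, from RefSeq promoters of GRCr8, as they were for 40 of the 52 genes. The sequences below are those of the 2 genes with the largest fall and the 2 with the largest rise, with Cxcl1 added after its sequence was seen, because it holds the most matches. Each runs 5′ to 3′ on the strand of the gene and ends at the base before the start; capitals mark matches, on either strand, to a loose form of the NF-kB site (GGG, any 5 bases, CC), to TGANTCA, the AP-1 site, ACGTG, the core of the hypoxia response element, or TTCNNNGAA, the STAT site.
Cxcl14, chr17:8322900-8323149, plus strand: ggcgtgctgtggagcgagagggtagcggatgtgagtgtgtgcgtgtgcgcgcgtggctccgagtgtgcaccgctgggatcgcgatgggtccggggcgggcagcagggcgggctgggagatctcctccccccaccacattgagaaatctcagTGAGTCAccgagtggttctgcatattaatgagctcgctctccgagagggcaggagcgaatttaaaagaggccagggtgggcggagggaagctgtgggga
Ackr3, chr9:98247104-98247353, plus strand: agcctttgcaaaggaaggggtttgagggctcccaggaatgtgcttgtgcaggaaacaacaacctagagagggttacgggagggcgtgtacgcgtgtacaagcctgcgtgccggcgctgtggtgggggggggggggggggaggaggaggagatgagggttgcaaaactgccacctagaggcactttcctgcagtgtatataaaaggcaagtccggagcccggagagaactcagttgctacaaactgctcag
Ccl9, chr10:68868878-68869127, minus strand: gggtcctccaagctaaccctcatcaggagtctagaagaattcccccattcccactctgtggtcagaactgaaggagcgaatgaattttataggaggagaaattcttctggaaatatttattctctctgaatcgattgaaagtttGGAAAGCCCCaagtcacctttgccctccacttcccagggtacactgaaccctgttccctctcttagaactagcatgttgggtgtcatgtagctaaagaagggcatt
Ccl7, chr10:67513845-67514094, plus strand: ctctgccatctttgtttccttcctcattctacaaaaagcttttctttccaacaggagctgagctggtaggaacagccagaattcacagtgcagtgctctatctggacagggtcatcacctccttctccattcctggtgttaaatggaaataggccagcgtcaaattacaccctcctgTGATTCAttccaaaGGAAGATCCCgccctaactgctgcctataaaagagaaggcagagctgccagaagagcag
Cxcl1, chr14:17479322-17479571, minus strand: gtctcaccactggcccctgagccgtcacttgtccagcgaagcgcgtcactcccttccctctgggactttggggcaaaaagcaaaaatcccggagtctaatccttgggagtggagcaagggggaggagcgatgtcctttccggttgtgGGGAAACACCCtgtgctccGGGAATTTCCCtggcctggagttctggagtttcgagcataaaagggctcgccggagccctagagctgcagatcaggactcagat

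The loose NF-kB motif was found before 3 of the 8 changed genes, Cxcl1, Ccl7 and Ccl9, and before 42.3% of all 33469 promoters of the same length. In Cxcl1 it was matched by GGGAAACACC, 94 to 103 bases before the start, and by GGGAATTTCC, 75 to 84 bases before it, each also matched on the other strand 1 base nearer the start. TGANTCA was found before Cxcl14, as TGAGTCA 93 to 99 bases before the start, and before Ccl7, as TGATTCA 67 to 73 bases before it; 6.34% of all promoters hold it. TTCNNNGAA was found before Ccl17 (7.67% of all promoters) and ACGTG before 0 of the 8 (16.6% of all promoters). Over the 40 genes with a promoter, the shares were 52.5%, 15.0%, 10.0% and 17.5% for the NF-kB motif, TGANTCA, TTCNNNGAA and ACGTG. These matches are descriptions of the letters, and no binding was measured.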

How the data were processed

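RNA of 6 neurosphere samples, 100 ng each, was made into biotinylated cRNA for Affymetrix arrays, per the labels. The authors deposited a table of log2 values, 1 for each of 29214 probe sets on each array. The base was inferred from the range of the values. The background correction, normalization and software behind them are not stated in the labels or the file, so the margin of dim probe sets over background is unknown, and the small number of arrays limits the precision. The values were used as deposited. Names came from GEO's platform table, which gave 15310 probe sets a single symbol, 323 several and left 13581 unlisted and unnamed here; of a gene's probe sets the one of highest mean was used. A linear model over all 14506 genes (limma 3.58.1 under R 4.3.3, eBayes with a mean-variance trend) gave two-sided tests, adjusted after Benjamini and Hochberg with every gene included, at 0.05. The script was tested on simulated data.

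Groups and replicate numbers came from the sample titles. Whether arrays of 1 group stem from different animals or cultures is not stated; the tests rest on the variation among these arrays, part or all of which may be technical. The 14 gene lists and the members were chosen with earlier results of these data known. Values on all arrays are given for members past the threshold, for others brighter than the median gene, for ligand and receptor partners of changed members, and for Ccl12, added after its values were seen; up to 2 genes a direction were named among those of a list that passed, and others of the related genes after their values were seen. All 52 members matched RefSeq's gene table, with 0 symbols changed. Alternatives were the replicate block, quantile normalization, median centring, a filter on dim genes, other choices of probe set, variance model and threshold, array weights, and leaving out each array. Figures were drawn with matplotlib 3.10.9.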

Additional observations from a re-analysis of the deposited data

How the results depend on the processing

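The counts of genes that rose (6) and fell (3) stayed within 1.5 times under every alternative run. They were 6 and 3, with all 9 genes shared, with quantile normalization, median centring, dim genes left out, probe sets of a gene averaged, the probe set of largest variance, eBayes without the trend and robust eBayes. The other counts were 7 and 3 with array weights, 5 and 3 at an adjusted p under 0.01, 5 and 2 with a log2 change of at least 1, and, as each array was left out, 5 to 7 and 3 to 4. With the replicate number as a block 9 rose and 4 fell, adding Cxcl13 (limma adjusted p = 0.000431), Ccl12 (0.0104), Ccl26 (0.0438) and Ccl3 (0.0451). Deviations of same-numbered arrays correlated at 0.12, 0.12 and -0.0038 for replicates 1, 2 and 3. Undifferentiated replicates 1 and 2 thus correlated best with their own number, and replicate 3 with differentiated replicate 1 (0.06). The labels do not pair the arrays, so no pairing was taken, and whether same-numbered arrays share a source cannot be told. With array weights Cxcl13 also passed (adjusted p = 0.0478).

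As each array was left out the sign turned for 16 of the 52 genes, 0 of them among the 9 that passed; the largest change among the 16 was that of Ccr2. Ccl6 read -0.02 with quantile normalization and -0.08 with array weights, and ran from -0.16 to 0.14 as each array was left out; Ccl5 ran from -0.11 to 0.01, Ccr2 from -0.04 to 0.75 and Ccr4 from -0.04 to 0.18. The dim genes limit what can be seen: 26 of the 52 remained with the filter, and 16 of the 52 lay below the lower quartile of genes on all 6 arrays, where a fall could hardly be followed.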
